A study of Mus musculus with 9 samples.

Results

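Genes that mark alpha-beta T cells and regulatory T cells were followed in the dermis of mouse ears with psoriasis-like inflammation. The 10 members, taken from the count table by their symbols, were Trac, Trbc1, Trbc2, Cd4, Cd8a, Cd5, Lck, Foxp3, Il2ra and Ctla4. They were 10 of the 52550 genes in the table, and all 10 were among the 22430 genes with enough counts to be tested. Messenger RNA was sequenced in 9 libraries, 3 in each of 3 groups of wild-type C57BL/6 mice aged 8 weeks, which the study's methods give as male and as the substrain C57BL/6J. Mice of the control group, VAS+H2O, had vaseline on the ear for 5 days and water by gavage. The model group, IMQ+H2O, had cream with imiquimod, an agonist of Toll-like receptor 7, for 5 days in place of vaseline, and water by gavage. The treated group, IMQ+XYF, had the same cream and was given Xiao-Yin-Fang (XYF), an herbal decoction of Chinese medicine, at 23.3 mg/g by gavage. By the labels the gavage was 200 µl once a day for 10 days in all groups, whereas a figure legend on the ear model has 2 gavages a day. The methods describe RNA from the ear sheets of 2 mice, without saying if these were pooled in a library. The figure legend on the sequencing gives n = 3 for each group. How many animals the 3 libraries of a group stem from is thus unclear, and it may be fewer than 3. The p-values below therefore measure the spread between libraries, which may in part be technical.

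Alpha-beta T cells recognize peptides on MHC molecules through a receptor made of an alpha and a beta chain, which signals into the cell through the CD3 chains. The coreceptor CD4 binds MHC class II and the coreceptor CD8 binds MHC class I, and both bring the kinase Lck to the receptor. Regulatory T cells are mostly CD4 T cells that depend on the transcription factor Foxp3, carry the interleukin 2 receptor alpha chain and CTLA-4, and restrain inflammation. They are common among the CD4 T cells of healthy skin, whereas gamma-delta T cells carry another receptor and are a main source of interleukin 17 in mouse dermis after imiquimod.

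The libraries held between 28756305 and 79836881 counts, of which mitochondrial genes took 8.21 to 14.3%, and the 10 members together between 438 and 1488. Levels are given in CPM, counts relative to the library's total with TMM scaling. Where a gene had a count of 0, its level was under the limit that 3 counts set, 0.0373 to 0.103 CPM by library, which covers counting error only. The CD3 chains Cd3e, Cd3d, Cd3g and Cd247 were counted in each library, with a summed level of 5.58 to 12.7 CPM. Their presence does not show which cells carried the transcripts of the members, which was not tested. In bulk tissue, fewer T cells and less RNA per T cell cannot be told apart. Keratinocyte, cartilage and skeletal muscle genes were also present, so the libraries were not dermal cells alone. Summed cartilage markers (10 genes, 9 of them tested) ran from 1711 to 3906 CPM in VAS+H2O, from 509 to 896 CPM in IMQ+H2O and from 1053 to 2887 CPM in IMQ+XYF. Of these markers Matn1 was at 0 in all libraries. The part of tissue composition in the T cell values was not tested beyond the fit with a cartilage score given below.

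The beta constant genes lie side by side on chromosome 6 and are near copies of each other, which bears on how their reads were counted. In the GENCODE transcripts of GRCm38, Trbc1 is on the plus strand at chr6:41538218-41539881 and Trbc2 on the plus strand at chr6:41546730-41548352. Their first exon is 375 bases long and differs in 1 base, at position 260 from the exon's start. The 61 bases around that position are shown first, with the differing base in capitals, because a read without this base could come from either gene. The third exon, 107 bases with 15 differences in capitals, is shown because it is one of the stretches that can separate the genes.
Trbc1 exon 1, chr6:41538447-41538507, plus strand: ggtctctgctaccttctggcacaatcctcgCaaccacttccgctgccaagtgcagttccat
Trbc2 exon 1, chr6:41546959-41547019, plus strand: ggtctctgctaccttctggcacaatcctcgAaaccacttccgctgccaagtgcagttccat
Trbc1 exon 3, chr6:41539229-41539335, plus strand: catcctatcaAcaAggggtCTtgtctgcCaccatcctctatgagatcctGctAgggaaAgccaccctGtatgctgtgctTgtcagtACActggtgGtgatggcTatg
Trbc2 exon 3, chr6:41547772-41547878, plus strand: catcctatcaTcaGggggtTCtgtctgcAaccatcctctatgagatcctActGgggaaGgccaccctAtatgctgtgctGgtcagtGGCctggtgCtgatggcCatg

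Over exons 1 to 3, 19 of 500 bases differed (96.2% identity), and the longest identical run was 259 bases. How the authors counted reads that fit both genes was not stated, so the single values of Trbc1 and Trbc2 are uncertain and their sum is given too.

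The 10 genes were expressed at low and unequal levels. Levels of different genes were compared only per length, as CPM per kilobase of annotated exon. In VAS+H2O the order was Trbc2 (2.97 ± 0.717 CPM per kb, SD, n = 3), Trbc1 (2.71 ± 0.812), Cd4 (2.31 ± 0.866), Trac (0.933 ± 0.345), Lck (0.707 ± 0.122), Il2ra (0.510 ± 0.109), Ctla4 (0.478 ± 0.373), Cd5 (0.286 ± 0.105), Foxp3 (0.253 ± 0.115) and Cd8a (0.0239 ± 0.0271). Among neighbours in that order, the libraries of Cd4 and Trac and those of Foxp3 and Cd8a did not overlap, and all other neighbours overlapped. Among the treated libraries, Trbc2 was at 4.54 ± 3.01 and Trbc1 at 1.94 ± 0.300 CPM per kb. There Cd4 stood behind Lck and Trac, at 0.688 ± 0.119 against 0.723 ± 0.202 and 0.704 ± 0.299 CPM per kb, 3 values that differed by less than their spread. Cd8a stayed the lowest in each group, at 0.0714 ± 0.0675 CPM per kb in IMQ+H2O and 0.0738 ± 0.0234 in IMQ+XYF.

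**Figure D1:**
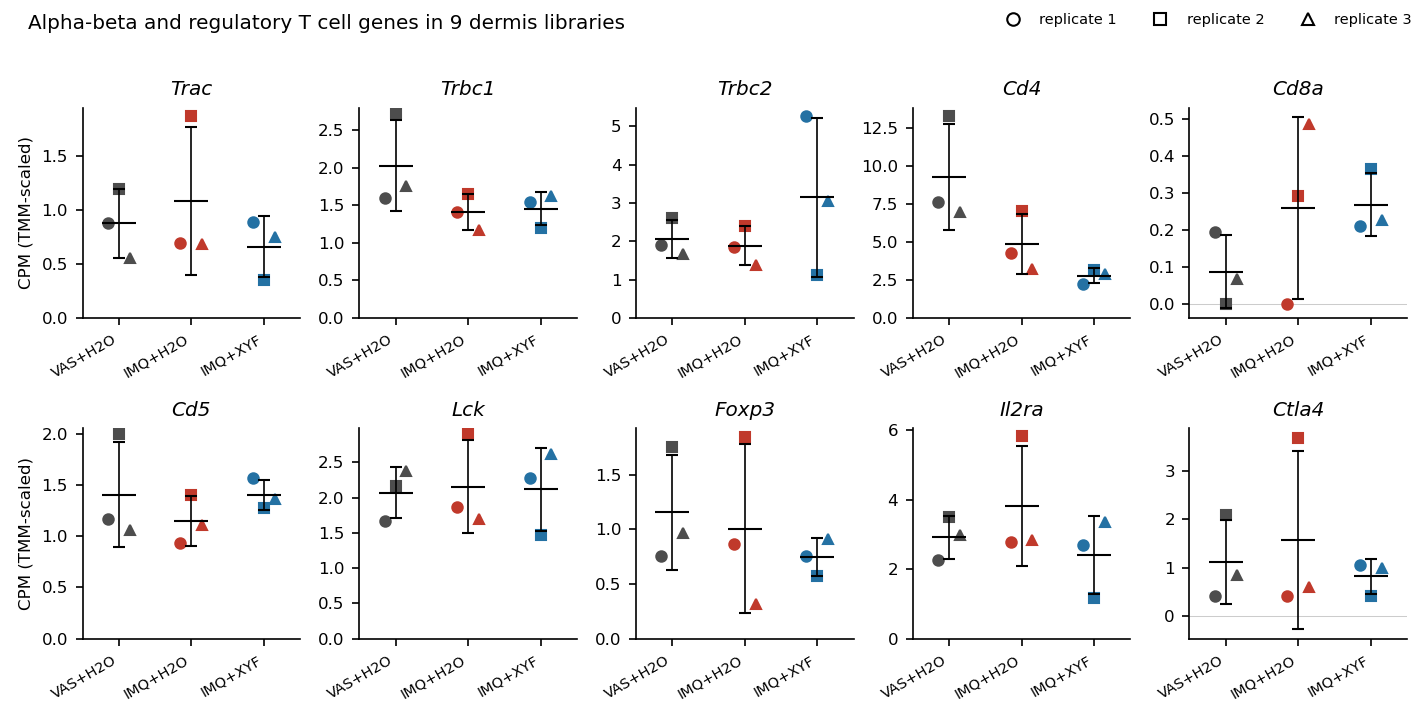
TMM-scaled CPM of each of the 10 genes (vertical axes start at 0 or, for Cd8a and Ctla4, just below it, with a scale per gene) in the 3 groups, with a symbol per library and the mean ± SD of 3 libraries as a bar. Cd4 steps down from 6.97 to 13.3 CPM in VAS+H2O to 2.24 to 3.17 CPM in IMQ+XYF, whereas in most other panels 1 library, often IMQ+H2O replicate 2, stands above the rest.

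Cd4 was the gene among the 10 whose level differed most clearly between groups. It encodes the coreceptor of helper and regulatory T cells and is also made by some dendritic cells and macrophages. The gene lies at chr6:124864692-124888221 on the minus strand. Its level was 7.62, 13.3 and 6.97 CPM in the VAS+H2O libraries (always in the order of replicates 1 to 3), 4.27, 7.06 and 3.24 CPM in IMQ+H2O, and 2.24, 3.17 and 2.91 CPM in IMQ+XYF. All 3 IMQ+XYF libraries were below all 3 libraries of each other group, and the only overlap between IMQ+H2O and VAS+H2O was IMQ+H2O replicate 2, which was just above the lowest control.

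Cd4 fell in IMQ+XYF against VAS+H2O, by 1.74 on the log2 scale (SE 0.35, 95% interval -2.55 to -0.94, quasi-likelihood test of edgeR, Benjamini-Hochberg adjusted p = 0.0475), or 3.35-fold. A gene was called where the adjusted p was 0.05 or lower and the absolute log2 fold change 1 or higher. In IMQ+H2O against VAS+H2O the log2 fold change of Cd4 was -0.94 (SE 0.35, 95% interval -1.72 to -0.15, edgeR adjusted p = 0.176). Between IMQ+XYF and IMQ+H2O it was -0.81 (SE 0.35, 95% interval -1.60 to -0.020, edgeR adjusted p = 0.420). Neither of these passed the test, and they share the IMQ+H2O libraries. The call in IMQ+XYF against VAS+H2O stood close to the threshold and was lost in 12 of 15 alternative fits, with log2 fold changes from -1.92 to -1.40 over all 15, as without VAS+H2O replicate 2 (log2 fold change -1.40, edgeR adjusted p = 0.141).

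Cd8a, the alpha chain of the coreceptor of cytotoxic T cells, was near the detection floor. Its counts were 8, 0 and 5 in VAS+H2O, 0, 12 and 25 in IMQ+H2O, and 17, 18 and 14 in IMQ+XYF. On the CPM scale these were 0.194, 0 and 0.0670, then 0, 0.291 and 0.488, then 0.212, 0.366 and 0.227. The IMQ+XYF libraries lay above those of VAS+H2O and inside the range of IMQ+H2O. The log2 fold change was 1.61 by imiquimod (95% interval -0.97 to 4.19, edgeR adjusted p = 0.446) and 1.59 in IMQ+XYF against VAS+H2O (95% interval -0.96 to 4.13, edgeR adjusted p = 0.513), and none of its 3 comparisons passed the test. Its partner chain Cd8b1 was no higher than 0.461 CPM in any library.

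Trac, the constant gene of the alpha chain at chr14:54220521-54224206, was at 0.873, 1.20 and 0.549 CPM in VAS+H2O, 0.689, 1.87 and 0.683 CPM in IMQ+H2O, and 0.883, 0.346 and 0.747 CPM in IMQ+XYF. IMQ+H2O replicate 2 was the highest and IMQ+XYF replicate 2 the lowest of the 9, and the groups overlapped. Its log2 fold change was 0.33 by imiquimod (95% interval -0.87 to 1.52, edgeR adjusted p = 0.759) and -0.70 in IMQ+XYF against IMQ+H2O (95% interval -1.90 to 0.49, edgeR adjusted p = 0.604). Without IMQ+H2O replicate 2 these were -0.34 and -0.043, so the sign of the first and nearly all of the second rested on that library.

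Trbc1, whose first exon is printed above, was at 1.60, 2.72 and 1.76 CPM in VAS+H2O, 1.41, 1.65 and 1.17 CPM in IMQ+H2O, and 1.54, 1.20 and 1.62 CPM in IMQ+XYF. Its level was highest in VAS+H2O replicate 2, and the groups overlapped. Its log2 fold change was -0.52 by imiquimod (SE 0.28, 95% interval -1.15 to 0.11, edgeR adjusted p = 0.317) and 0.049 in IMQ+XYF against IMQ+H2O (95% interval -0.58 to 0.68, edgeR adjusted p = 0.957).

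Trbc2 was at 1.89, 2.61 and 1.66 CPM in VAS+H2O, 1.86, 2.40 and 1.38 CPM in IMQ+H2O, and 5.28, 1.12 and 3.04 CPM in IMQ+XYF. The treated group held both the highest and the lowest of the 9 libraries. The log2 fold change in IMQ+XYF against IMQ+H2O was 0.75 (SE 0.49, 95% interval -0.38 to 1.87, edgeR adjusted p = 0.558), and without IMQ+XYF replicate 1 it was 0.15. By imiquimod it was -0.12 (95% interval -1.25 to 1.01, edgeR adjusted p = 0.907). That library had 424 counts of Trbc2 and 124 of Trbc1. The sum of both beta constant genes was 3.49, 5.34 and 3.42 CPM in VAS+H2O, 3.27, 4.05 and 2.56 CPM in IMQ+H2O, and 6.82, 2.32 and 4.66 CPM in IMQ+XYF, with overlap between all groups. The same library, IMQ+XYF replicate 1, was also the highest for the CD3 chains Cd3e and Cd3g, at 3.30 and 5.16 CPM. The CD3 chains Cd3d and Cd247 were instead highest in VAS+H2O replicate 2, at 0.889 and 5.22 CPM. In IMQ+XYF replicate 1 they were at 0.722 and 3.15 CPM. Trac was at 0.883 CPM in IMQ+XYF replicate 1 and highest in IMQ+H2O replicate 2, at 1.87 CPM. IMQ+XYF replicate 1 also had the highest summed epidermis markers (7 of 7 tested), 14210 CPM against 2143 to 6305 CPM in the other 8 libraries. Cd207, a marker of Langerhans cells of the epidermis, was at 9.15 CPM there and lower in the other 8 libraries. The gamma-delta receptor genes Tcrg-C1, Tcrg-C2 and Trdv4 were highest there too, at 2.59, 1.08 and 1.44 CPM. Trdc was instead highest in IMQ+H2O replicate 3, at 26.7 CPM, and Tcrg-C4 in VAS+H2O replicate 1, at 0.364 CPM. Cd207 and these gamma-delta genes other than Trdc were named after their values were seen. The part of the epidermis in the Trbc2 value was not tested.

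Variable segments of the receptor genes gave too few counts to describe clones or their use. A count in some library was found for 34 of 128 alpha variable segments and for 15 of 35 beta variable segments, and 0 of either kind were tested. The alpha segments together had 5 to 35 counts in a library and the beta segments 4 to 18.

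Cd5 and Lck take part in signalling through the receptor, which their transcript levels do not measure. Cd5, a surface inhibitor of that signalling, was at 1.16, 2.0 and 1.06 CPM in VAS+H2O, 0.930, 1.41 and 1.11 CPM in IMQ+H2O, and 1.57, 1.28 and 1.36 CPM in IMQ+XYF. Lck, the coreceptor-bound kinase that starts the signal, was at 1.67, 2.17 and 2.37 CPM in VAS+H2O, 1.86, 2.91 and 1.70 CPM in IMQ+H2O, and 2.28, 1.46 and 2.61 CPM in IMQ+XYF. For both genes the 3 groups overlapped in every comparison.

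The log2 fold change of Lck was 0.056 by imiquimod (SE 0.31, 95% interval -0.64 to 0.75, edgeR adjusted p = 0.933), -0.023 in IMQ+XYF against IMQ+H2O (95% interval -0.71 to 0.67) and 0.033 in IMQ+XYF against VAS+H2O (95% interval -0.66 to 0.72). For Cd5 these were -0.28 (95% interval -0.98 to 0.42), 0.29 (-0.41 to 0.98) and 0.0064 (-0.68 to 0.69). Apart from Trbc1, these 2 genes had the narrowest intervals of the genes that did not pass the test. Their intervals leave out changes of 2-fold, log2 fold changes beyond -1 and 1, in each comparison.

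**Figure D2:**
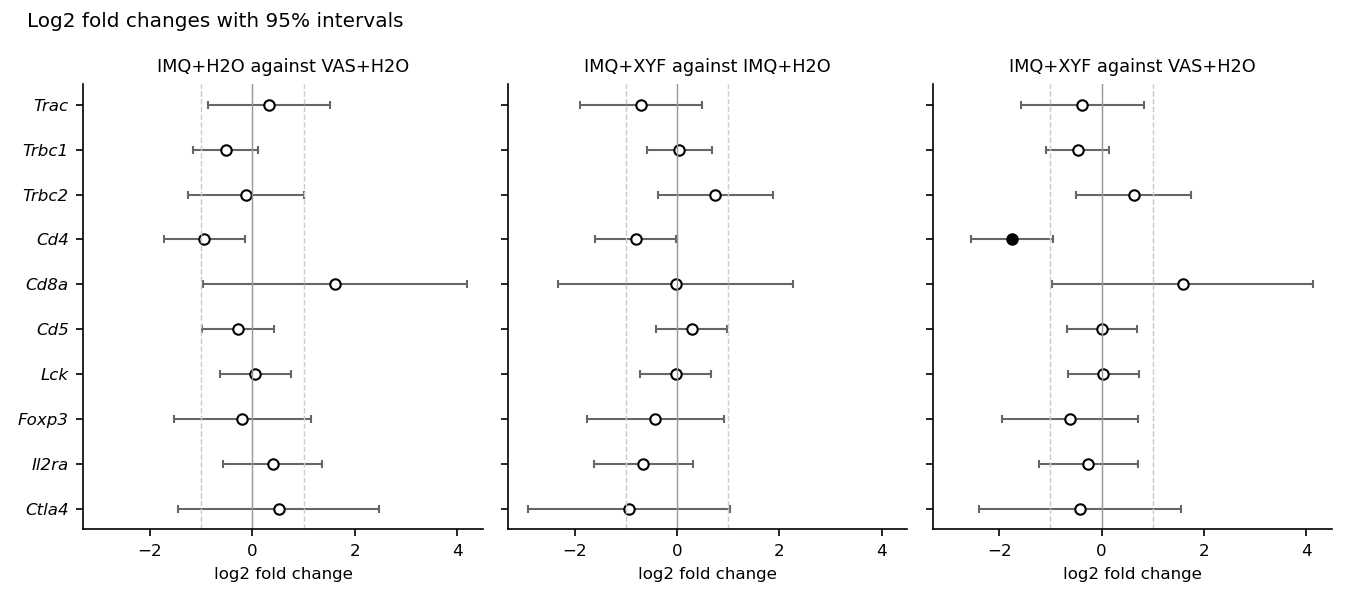
Log2 fold changes of the 10 genes (points) with 95% intervals (lines) in 3 comparisons from 1 edgeR fit of 9 libraries, with the filled point the only one that was called and dashed lines at -1 and 1. Cd4 in IMQ+XYF against VAS+H2O is called at -1.74, and the intervals of the other 9 genes reach across 0 in each comparison.

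Foxp3, the transcription factor that defines regulatory T cells, was at 0.752, 1.75 and 0.965 CPM in VAS+H2O, 0.861, 1.84 and 0.312 CPM in IMQ+H2O, and 0.759, 0.569 and 0.909 CPM in IMQ+XYF. The model group held the highest and the lowest of the 9 libraries, and all groups overlapped. The log2 fold change was -0.20 by imiquimod (SE 0.59, 95% interval -1.53 to 1.14, edgeR adjusted p = 0.874), -0.42 in IMQ+XYF against IMQ+H2O (95% interval -1.76 to 0.92, edgeR adjusted p = 0.798) and -0.62 in IMQ+XYF against VAS+H2O (95% interval -1.95 to 0.71, edgeR adjusted p = 0.646). Without IMQ+H2O replicate 2, the value in IMQ+XYF against IMQ+H2O turned to 0.39.

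Foxp3 lies at chrX:7573644-7595245 on the plus strand, and its exons overlap those of other genes, which makes its counts uncertain. Flicr, a noncoding RNA on the same strand, shares 853 exon bases with it and had 0 to 47 counts in a library, against 16 to 76 counts of Foxp3. Ccdc22, Ppp1r3f and Gm36995 on the other strand share 590, 266 and 373 exon bases and had 412 to 1333, 147 to 423 and 55 to 402 counts. The labels describe a strand-specific library, the methods name a kit that in its standard form is not, and whether the counting used the strand was not stated.

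Il2ra, the alpha chain of the interleukin 2 receptor, lets T cells respond to little interleukin 2 and is high on regulatory T cells. Its level was 2.26, 3.50 and 2.97 CPM in VAS+H2O, 2.79, 5.82 and 2.85 CPM in IMQ+H2O, and 2.70, 1.18 and 3.36 CPM in IMQ+XYF. IMQ+H2O replicate 2 was the highest and IMQ+XYF replicate 2 the lowest. Its log2 fold change was 0.39 by imiquimod (SE 0.43, 95% interval -0.57 to 1.36, edgeR adjusted p = 0.632) and -0.66 in IMQ+XYF against IMQ+H2O (95% interval -1.63 to 0.31, edgeR adjusted p = 0.550).

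Ctla4, an inhibitory receptor for CD80 and CD86, varied more between libraries than any other member with counts in all of them. It was at 0.412, 2.08 and 0.844 CPM in VAS+H2O, 0.413, 3.69 and 0.605 CPM in IMQ+H2O, and 1.06, 0.407 and 0.990 CPM in IMQ+XYF. Its highest library was 9.07-fold above its lowest. Its log2 fold change was 0.51 by imiquimod (SE 0.87, 95% interval -1.45 to 2.48, edgeR adjusted p = 0.770), and -1.10 without IMQ+H2O replicate 2. Between IMQ+XYF and IMQ+H2O it was -0.93 (95% interval -2.90 to 1.03, edgeR adjusted p = 0.683), and 0.68 without that library.

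Counted together, 0 of the 10 genes were called by imiquimod, where 0.994% of all tested genes were called, and 0 of 10 in IMQ+XYF against IMQ+H2O, where 0.00892% were. In IMQ+XYF against VAS+H2O 1 of 10 was called, Cd4, where 1.2% of all tested genes were. At an unadjusted edgeR p under 0.05, Cd4 was the 1 gene of the 10 in each of the 3 comparisons, and 20.9%, 11.7% and 18.3% of all tested genes passed that limit. Apart from Cd4, the log2 fold changes in IMQ+XYF against VAS+H2O ran from -0.62 for Foxp3 to 1.59 for Cd8a, with -0.38 for Trac, -0.47 for Trbc1, 0.62 for Trbc2, -0.27 for Il2ra and -0.42 for Ctla4. With DESeq2, too, Cd4 was called in IMQ+XYF against VAS+H2O and no member in the other comparisons.

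The groups did not overlap for 0 of the 10 genes by imiquimod, where this held for 31.5% of all tested genes. In IMQ+XYF against IMQ+H2O they did not overlap for 1 gene, Cd4, where the share over all genes was 18%, and in IMQ+XYF against VAS+H2O for 2 genes, Cd4 and Cd8a, where it was 22.1%. The median log2 fold change of the 10 genes was -0.034, -0.22 and -0.32 in the 3 comparisons, beside -0.023, 0.0054 and -0.024 over all tested genes. Without IMQ+H2O replicate 2 the median in IMQ+XYF against IMQ+H2O turned from -0.22 to 0.22.

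**Figure D3:**
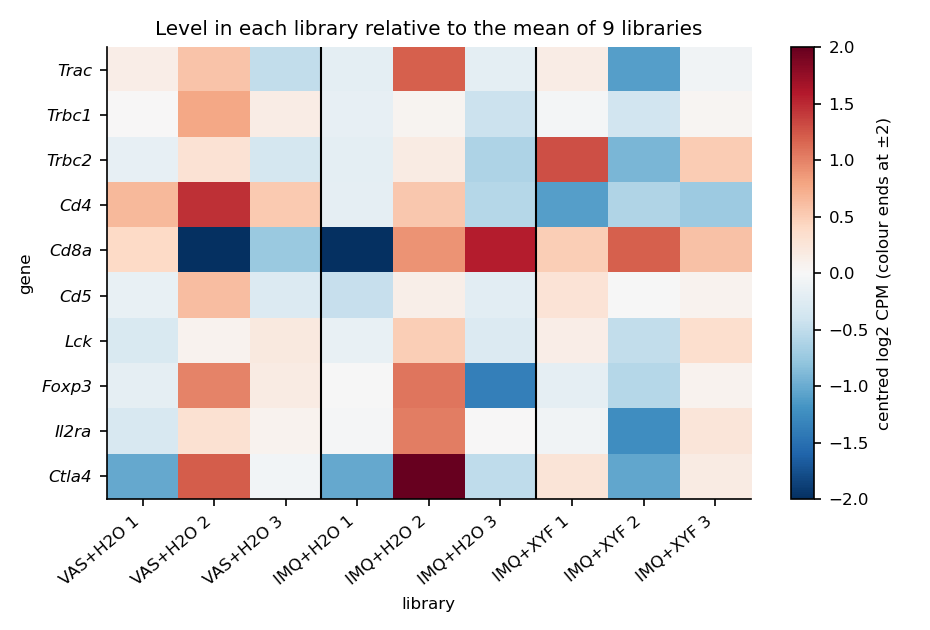
Level of each of the 10 genes (rows) in each library (columns), as log2 CPM minus the gene's mean over 9 libraries, in red above and blue below that mean. IMQ+H2O replicate 2 is red for all 10 genes and IMQ+XYF replicate 2 is below the mean for 9 of them, and Cd4 is red in all VAS+H2O and blue in all IMQ+XYF libraries.

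The libraries that were high or low for 1 of these genes tended to be so for others. IMQ+H2O replicate 2 was the highest of 9 for 5 of the 10 genes (Trac, Lck, Foxp3, Il2ra and Ctla4) and VAS+H2O replicate 2 for 3 (Trbc1, Cd4 and Cd5). IMQ+XYF replicate 2 was the lowest for 5 (Trac, Trbc2, Lck, Il2ra and Ctla4). The summed level of the 10 genes was 18.4, 31.3 and 19.2 CPM in VAS+H2O, 15.1, 28.9 and 13.5 CPM in IMQ+H2O, and 18.5, 11.1 and 17.8 CPM in IMQ+XYF.

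Macrophage, mast cell and dendritic cell markers were extreme in some of the same libraries. IMQ+H2O replicate 2 had the highest summed level of macrophage markers (9 of 9 tested; 677 to 1107 CPM in VAS+H2O, 896 to 1331 in IMQ+H2O, 780 to 873 in IMQ+XYF), mast cell markers (7 of 7 tested; 268 to 526, 313 to 706 and 231 to 447 CPM) and dendritic cell markers (10 of 10 tested; 32.2 to 53.9, 35.2 to 59.2 and 30.3 to 44.1 CPM). IMQ+XYF replicate 2 had the lowest of the mast cell and dendritic cell sums. Summed neutrophil markers, by contrast, were highest in IMQ+H2O replicate 3, at 655 CPM against 250 CPM in IMQ+H2O replicate 2, and lowest in VAS+H2O replicate 1, at 7.69 CPM. The cartilage sum was lowest in IMQ+H2O replicate 2, at 509 CPM, and within the treated group highest in IMQ+XYF replicate 2, at 2887 CPM. The part of these differences between libraries in the values of the T cell genes was not tested.

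With a cartilage score per library as a covariate, the median log2 fold change of the 10 genes went to -1.42 by imiquimod and to 0.67 in IMQ+XYF against IMQ+H2O. None of the members was called in that fit, in which the scores of the 3 IMQ+H2O libraries were below those of all others, so that the score and the model group cannot be told apart well. Cd4 had a log2 fold change of -1.85 in IMQ+XYF against VAS+H2O there (edgeR adjusted p = 0.0573).

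Ratios within a library do not depend on how the libraries were scaled. Ratios are log2 ratios of counts with 0.5 added, and each was compared between pairs of groups by a two-sided exact permutation test of 3 against 3 libraries, which cannot give a p below 0.1. With 12 such comparisons the smallest adjusted p was 0.4, so the design could not separate the groups for any ratio.

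The log2 ratio of Foxp3 to the summed beta constant genes was -1.87 ± 0.30 (SD, n = 3) in VAS+H2O, -2.01 ± 0.94 in IMQ+H2O and -2.50 ± 0.59 in IMQ+XYF. Its lowest value, -3.16, came from IMQ+XYF replicate 1, where Trbc2 was at 5.28 CPM and Trac at 0.883 CPM. Which cells carried these transcripts was not tested, so the ratio is not a share of cells. The groups overlapped, and the difference between IMQ+XYF and VAS+H2O was -0.63 (SE 0.38, exact permutation p = 0.2).

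The log2 ratio of Cd4 to Cd8a was 5.21, 9.91 and 6.56 in VAS+H2O, 7.96, 4.54 and 2.71 in IMQ+H2O, and 3.37, 3.08 and 3.63 in IMQ+XYF. All 3 IMQ+XYF libraries were below all 3 of VAS+H2O, with a difference of -3.87 (SE 1.40, exact permutation p = 0.1, adjusted p = 0.4). The highest value in VAS+H2O and in IMQ+H2O came from a library with a Cd8a count of 0, so these 2 values are set by the added 0.5.

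The log2 ratio of the summed beta constant genes to Trdc, the constant gene of the delta chain of gamma-delta T cells, was -0.097, -0.36 and -0.028 in VAS+H2O, 0.26, -2.22 and -3.38 in IMQ+H2O, and -0.82, -0.58 and -1.01 in IMQ+XYF. Trdc itself was at 3.74, 6.84 and 3.48 CPM in VAS+H2O, 2.72, 19.0 and 26.7 CPM in IMQ+H2O, and 12.1, 3.48 and 9.37 CPM in IMQ+XYF, and was not called. The ratio was lower in all 3 IMQ+XYF libraries than in all 3 of VAS+H2O, by 0.64 (difference -0.64, SE 0.16, exact permutation p = 0.1, adjusted p = 0.4). The low ratios of IMQ+H2O were in the replicates with high Trdc, 2 and 3, where the beta constant sum was 4.05 and 2.56 CPM.

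The log2 ratio of Trbc1 to Trbc2 was -0.034 ± 0.18 in VAS+H2O, -0.39 ± 0.15 in IMQ+H2O and -0.86 ± 0.94 in IMQ+XYF. The IMQ+H2O libraries were all below those of VAS+H2O, with a difference of -0.36 (SE 0.13, exact permutation p = 0.1, adjusted p = 0.4). The near identity of the first exons printed above limits what this ratio can show.

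**Figure D4:**
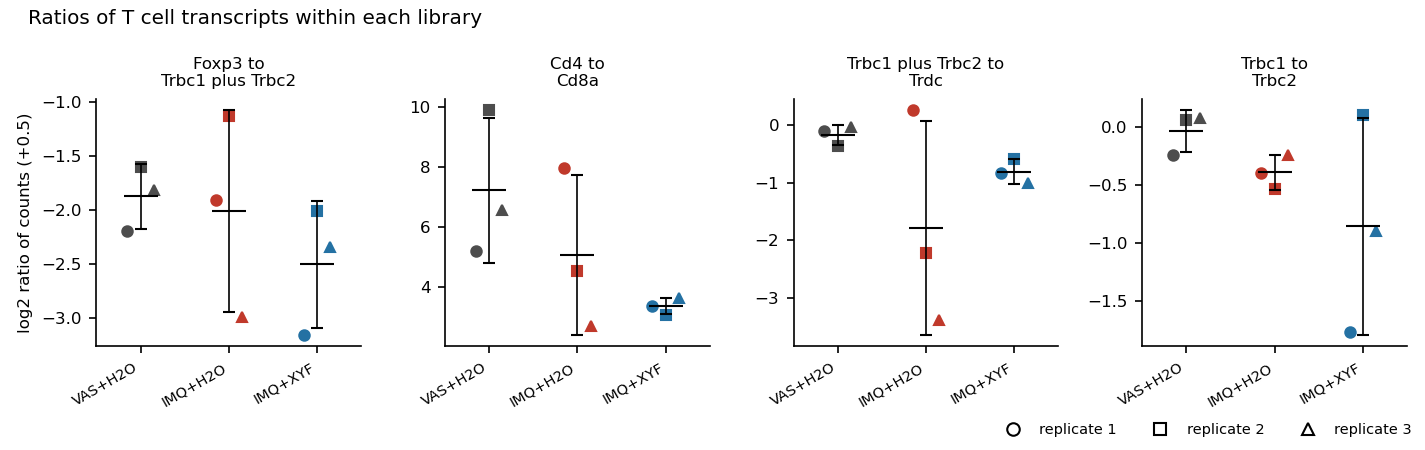
Log2 ratios of counts (0.5 added) within each library for 4 pairs of T cell transcripts, with a symbol per library and the mean ± SD of 3 libraries. The ratio of Cd4 to Cd8a and that of the beta constant sum to Trdc do not overlap between IMQ+XYF and VAS+H2O, and IMQ+H2O is the most spread group in 3 of the 4 panels.

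The genes around the receptor were read for the same changes. The 4 CD3 chains, which carry the signal of both T cell lineages, were lower by imiquimod in 4 of 4 cases with a median log2 fold change of -0.50, and 0 were called. Cd247, the zeta chain, had the smallest adjusted p of these. It was at 4.29, 5.22 and 4.90 CPM in VAS+H2O, 2.14, 3.76 and 2.48 CPM in IMQ+H2O, and 3.15, 2.28 and 2.99 CPM in IMQ+XYF. All 6 libraries with imiquimod were below the controls for this gene, with a log2 fold change of -0.78 (edgeR adjusted p = 0.135) by imiquimod and -0.78 (edgeR adjusted p = 0.142) in IMQ+XYF against VAS+H2O. The median of the 4 chains was 0.31 in IMQ+XYF against IMQ+H2O.

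Of 9 tested T cell surface genes 1 was called. Cd27, a costimulatory receptor of the TNF receptor family, was at 1.38, 1.33 and 1.14 CPM in VAS+H2O, 0.689, 0.728 and 0.624 CPM in IMQ+H2O, and 0.386, 0.549 and 0.406 CPM in IMQ+XYF, with no overlap between any pair of groups. It fell in IMQ+XYF against VAS+H2O by 1.52 on the log2 scale (edgeR adjusted p = 0.0358), with -0.91 (edgeR adjusted p = 0.111) by imiquimod and -0.61 (edgeR adjusted p = 0.424) between IMQ+XYF and IMQ+H2O. Cd7 had a log2 fold change of 1.23 in IMQ+XYF against IMQ+H2O (edgeR adjusted p = 0.358).

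Of 17 tested genes of T cell receptor signalling, 2 were called by imiquimod, 1 in each direction. Nfatc2, a calcium-dependent transcription factor found in many cell types, fell by 1.40 (edgeR adjusted p = 0.0314) and was also lower in IMQ+XYF than in VAS+H2O (log2 fold change -1.27, edgeR adjusted p = 0.0383). Lcp2, an adaptor that myeloid cells share with T cells, rose by 1.47 (edgeR adjusted p = 0.0453). Of 10 tested T cell transcription factors 0 were called, and 9 of 10 had a negative log2 fold change by imiquimod, with a median of -0.32. The lowest, Gata3, had -0.91 (edgeR adjusted p = 0.0761).

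Of the 20 further regulatory T cell genes that were tested, 0 were called in any comparison. In the 3 comparisons 6, 3 and 7 of the 20 had an unadjusted edgeR p under 0.05, beside 20.9%, 11.7% and 18.3% of all tested genes. The median log2 fold change of these regulatory T cell genes was 0.033 by imiquimod and -0.15 in IMQ+XYF against IMQ+H2O. Nt5e, the ectonucleotidase CD73, had an edgeR adjusted p of 0.0247 with a log2 fold change of -0.99 by imiquimod, just short of the limit of 1. Its level was 130 to 150 CPM in VAS+H2O and 62.7 to 79.2 CPM in IMQ+H2O. Per length it was at 16.4 CPM per kb in VAS+H2O, against 0.253 for Foxp3, and other dermal cells express it too. Entpd1, which acts before it in the breakdown of extracellular ATP, had 0.98 (edgeR adjusted p = 0.130). Of 11 tested genes of interleukin 2 signalling 0 were called, with medians of 0.10 and 0.080.

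**Figure D5:**
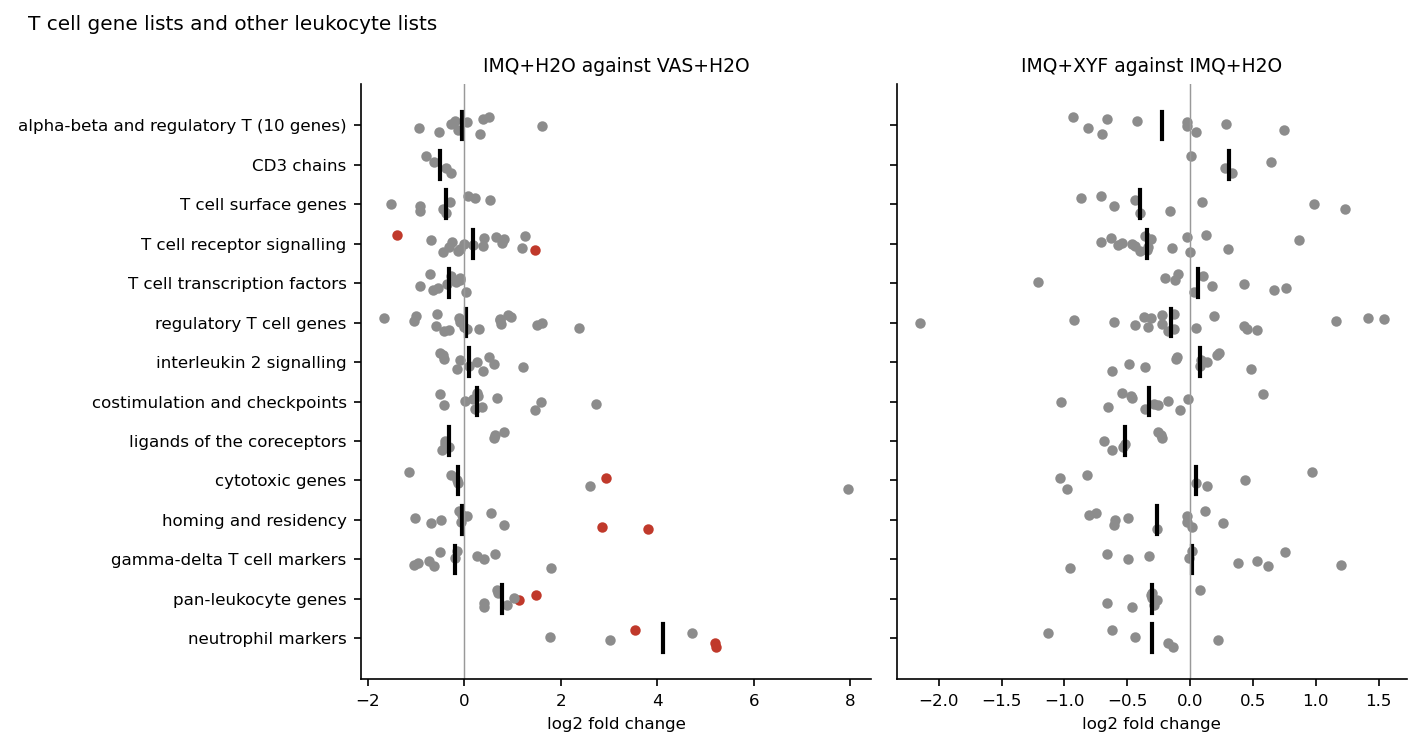
Log2 fold changes of tested genes (points, called ones in red) in 14 gene lists by imiquimod (left) and in IMQ+XYF against IMQ+H2O (right), with the list's median as a vertical bar, on axes of different length. The 10 T cell genes centre near 0 by imiquimod (median -0.034) while neutrophil markers centre at 4.13 and pan-leukocyte genes at 0.79.

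Of the 7 ligands of the coreceptors 0 were called in any comparison. The 4 MHC class II genes H2-Aa, H2-Ab1, H2-Eb1 and Cd74, of which all but Cd74 were named after their values were seen, did not overlap between IMQ+XYF and VAS+H2O. These were 4 of the 7 ligands, beside 22.1% of all tested genes without overlap in that comparison. Cd74, the invariant chain, was at 489, 733 and 615 CPM in VAS+H2O, 363, 633 and 411 CPM in IMQ+H2O, and 305, 207 and 361 CPM in IMQ+XYF. Their log2 fold changes in IMQ+XYF against VAS+H2O were -1.07 for H2-Aa and for Cd74, -0.85 for H2-Ab1 and -0.91 for H2-Eb1, and 0 were called (edgeR adjusted p from 0.0801 to 0.131). The class I genes B2m, H2-D1 and H2-K1 had 0.82, 0.64 and 0.62 by imiquimod (edgeR adjusted p = 0.102, 0.154 and 0.243), and 0.57, 0.40 and 0.39 in IMQ+XYF against VAS+H2O, with overlap between these groups. In IMQ+XYF against IMQ+H2O the 7 genes of both classes had negative log2 fold changes, from -0.69 to -0.22.

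In the mouse the class II genes are carried by antigen-presenting cells and not by T cells, whereas the CD3 chains are carried by alpha-beta and gamma-delta T cells alike. The ratio of Cd4 to the summed CPM of Cd3e, Cd3d and Cd3g, computed after the values were seen and so not tested, was 1.41, 1.79 and 1.60 in VAS+H2O, 1.24, 1.32 and 0.865 in IMQ+H2O, and 0.244, 0.709 and 0.785 in IMQ+XYF. The 3 groups did not overlap for this ratio. Its lowest value came from IMQ+XYF replicate 1, which had a CD3 sum of 9.18 CPM and the highest epidermis markers. Summed dendritic cell markers, given above, overlapped between all groups, and the macrophage marker sums of IMQ+XYF lay between those of the control libraries. Single markers differed from these sums. Between IMQ+XYF and VAS+H2O 4 of 10 dendritic cell markers and 3 of 9 macrophage markers did not overlap, beside 22.1% of all tested genes, and 0 were called. Siglech of plasmacytoid dendritic cells was at 0.422 to 0.895 CPM in IMQ+XYF and 1.29 to 1.96 CPM in VAS+H2O. Xcr1 of cross-presenting dendritic cells was at 0.386 to 0.471 against 0.834 to 0.938 CPM, and Cd209a at 3.36 to 5.18 against 6.19 to 14.0 CPM. Csf1r, the receptor of macrophage growth factor, was at no more than 61.2 CPM in IMQ+XYF and at 70.5 to 131 CPM in VAS+H2O. The other 3 of the 7, Ly75, Adgre1 and Fcgr1, were higher in IMQ+XYF, with log2 fold changes of 0.59, 1.12 and 0.98. Of these 7 genes those other than Cd209a were named after their values were seen. Which cells carried the Cd4 transcripts was not tested.

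Genes of activated and circulating lymphocytes were read last. Ccr7, the lymph node homing receptor of T cells and mature dendritic cells, rose by 2.86 on the log2 scale by imiquimod (edgeR adjusted p = 0.0314). Ccr7 was at 0.873, 0.917 and 1.11 CPM in VAS+H2O and between 3.38 and 11.1 CPM in the 6 libraries with imiquimod. Ccl5, a chemokine of activated T cells and of myeloid cells, rose by 2.93 (edgeR adjusted p = 0.0430). Of the 7 tested cytotoxic genes 1 was called by imiquimod. In the same comparison 3 of 6 tested neutrophil markers rose (S100a8 by 5.22, edgeR adjusted p = 0.0247), with summed levels of 7.69 to 26.2 CPM in VAS+H2O and 209 to 655 CPM in IMQ+H2O, and the part of these cells in the Ccl5 values was not tested. Of 8 tested T cell cytokine genes 0 were called.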

How the data were processed

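The table deposited by the authors holds whole-number read counts per Ensembl gene, with no normalization, for 9 dermis libraries. Per the labels and methods, reads were aligned with STAR 2.5 to GRCm38. The methods further name StringTie and DESeq2, and the submitters' processing notes name FastQC, Cuffnorm and DESeq 1.22.1. The counting tool and its handling of strand and of reads with several alignments are not given in the sources used here, which bears on Trbc1, Trbc2 and Foxp3. Counts were filtered with filterByExpr, scaled by TMM and tested with edgeR 4.0.16 (R 4.3.3) in 1 quasi-likelihood fit of 9 libraries, with Benjamini-Hochberg adjustment over 22430 genes and a common biological coefficient of variation of 0.296. Calls needed an adjusted p of at most 0.05 and an absolute log2 fold change of at least 1. The edgeR code was tested on simulated data. Ratios used two-sided exact permutation tests. DESeq2 1.42.0, other scalings, filters and covariates, and each library left out were the alternatives. Genes were matched to GENCODE vM21 (GRCm38) by Ensembl identifier, and sequences are from its transcripts. No libraries were duplicates (chi-squared per degree of freedom of 34.0 or more between replicates). The members and the 24 other gene lists were chosen with earlier results of these data known. Named genes are the members, and from each list the called genes and the 4 with the highest mean CPM, except where stated. Cd8b1, Ms4a1, Klra8, Matn1 and the genes that overlap exons of Foxp3 were named outside this rule. Some listed genes are not reported here. Genes most like the members were the 8 with the highest Pearson r.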

Additional observations from a re-analysis of the deposited data

How the results depend on the processing

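The call of Cd4 in IMQ+XYF against VAS+H2O decided whether 1 or 0 of the 10 members were called there. It held with DESeq2, with RLE size factors and without IMQ+XYF replicate 2. The count was 0 with no filter on low counts (log2 fold change -1.73, edgeR adjusted p = 0.0531), in a fit of the 2 groups alone (-1.73, edgeR adjusted p = 0.0809), with the cartilage score (-1.85, edgeR adjusted p = 0.0573) and without each other library, so that leaving out a library gave 0 to 1. Over all alternatives the adjusted p of Cd4 ran from 0.000140 to 0.144, and its log2 fold change was -1.40 or lower in each. In the other comparisons 0 members were called under each alternative. The replicate numbers do not pair the libraries, since deviations of same-numbered libraries correlated from -0.18 to 0.12. With the replicate block the count was 0 (Cd4 log2 fold change -1.68, edgeR adjusted p = 0.0553), Cd8a was at 0.095 in IMQ+XYF against IMQ+H2O and Ctla4 at 0.13 in IMQ+XYF against VAS+H2O, both reversed, and over all genes the calls went from 223, 2 and 270 to 86, 0 and 54.

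Reversals touched only changes that were not called, and their cause was not tested. With the cartilage score they were, by imiquimod, Trac -1.53, Lck -0.96, Il2ra -1.28 and Ctla4 -3.18. In IMQ+XYF against IMQ+H2O they were Trac 0.55, Lck 0.70, Foxp3 1.11, Il2ra 0.51 and Ctla4 1.96, and in IMQ+XYF against VAS+H2O Trbc2 -0.18, Cd5 -0.18 and Lck -0.27. Cd8a in IMQ+XYF against IMQ+H2O turned to 0.026 with DESeq2 and 0.0030 with no filter, where Lck was at 0.0031. Leaving out each library by turn gave these ranges by imiquimod: Trac -0.34 to 0.61, Trbc2 -0.35 to 0.079, Cd5 -0.46 to 0.051, Lck -0.23 to 0.23, Foxp3 -1.01 to 0.26, Il2ra -0.048 to 0.59 and Ctla4 -1.10 to 1.30. Between IMQ+XYF and IMQ+H2O they were Trbc1 -0.051 to 0.20, Cd8a -0.55 to 0.80, Lck -0.20 to 0.26, Foxp3 -0.84 to 0.39 and Ctla4 -1.37 to 0.68. In IMQ+XYF against VAS+H2O they were Cd5 -0.17 to 0.34, Lck -0.14 to 0.29, Il2ra -0.57 to 0.11 and Ctla4 -0.81 to 0.37. All 96 alternative differences of the ratios lay within the pooled SD of the 2 groups from the main difference. That limit does not show whether they kept their direction. Calls over all genes by imiquimod were 945 with DESeq2, 496 in the fit of the 2 groups alone, 76 with the cartilage score and 25 to 455 without a library. In IMQ+XYF against IMQ+H2O these were 223, 1, 115 and 0 to 4, and in IMQ+XYF against VAS+H2O 701, 33, 206 and 12 to 592. Low counts limited Cd8a and the variable segments, and the part of depth in this was not tested.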

Other observations

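Markers of other lymphocytes were at unequal levels. Ighm, the heavy chain of immunoglobulin M, fell by 1.07 on the log2 scale by imiquimod (edgeR adjusted p = 0.0342) and by 1.63 in IMQ+XYF against VAS+H2O (edgeR adjusted p = 0.0137). Its level was 26.5, 23.2 and 25.8 CPM in VAS+H2O, 9.47, 14.5 and 12.1 CPM in IMQ+H2O, and 8.23, 6.81 and 9.29 CPM in IMQ+XYF. It made up most of the summed B cell markers, of which 5 of 12 were tested, while the B cell marker Ms4a1 was no higher than 0.254 CPM. The 5 tested B cell markers did not move together. By imiquimod 2 were higher and 3 lower, and in IMQ+XYF against VAS+H2O 3 were higher and 2 lower, with a median of 0.054. Pax5 was at a mean of 0.325 CPM in VAS+H2O and 0.671 CPM in IMQ+H2O. Of 8 markers of NK and innate lymphoid cells 4 were tested and 0 called, and Klra8 had no count in any library. Of 11 gamma-delta T cell markers, all tested, 0 were called. Ccl19, a ligand of Ccr7 made by lymph node stroma, rose by 1.88 by imiquimod (edgeR adjusted p = 0.0342). Of the 8 pan-leukocyte genes all had a positive log2 fold change by imiquimod, and Itgb2 (1.49, edgeR adjusted p = 0.0164) and Cd52 (1.14, edgeR adjusted p = 0.0499) were called.

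The 12 costimulation and checkpoint genes, partners of Ctla4 and Cd28 among them, had 0 calls, and 11 of 12 had a negative log2 fold change in IMQ+XYF against IMQ+H2O, with a median of -0.33. All 9 macrophage markers and all 7 mast cell markers were also lower there, with medians of -0.56 and -0.61 and 0 calls, and all 8 skeletal muscle markers, with a median of -1.72. The 7 epidermis markers had a median of 1.38 and the 9 tested cartilage markers log2 fold changes of 0.95 to 1.87 in that comparison, with 0 calls. Erythrocyte markers, 5 of 6 tested, had a median of -0.082. Summed epidermis markers were 14210, 3751 and 4984 CPM in IMQ+XYF, with replicate 1 far above the others. They were 2143 to 3265 CPM in IMQ+H2O and 3644 to 6305 CPM in VAS+H2O.

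The genes most like the mean of the 10 members over the 9 libraries, by Pearson r of log2 CPM, were F7 (0.967), Cd209e (0.923), Cd200r1 (0.917), Rasal3 (0.913), C2cd2l (0.908), Serpinb1a (0.906), Casr (0.892) and Lat2 (0.890). These are the highest of 22430 genes over 9 libraries, given as a description.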
